A study of Mus musculus with 8 samples.

Results

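The teneurins, the latrophilins and the fibronectin leucine-rich transmembrane proteins Flrt2 and Flrt3 were followed by their mRNA levels in mouse dental papilla cells with and without Bmp2. The 9 genes, Odz1 to Odz4, Lphn1 to Lphn3, Flrt2 and Flrt3 in the symbols of the gene table, were found by name among its 22609 genes. They were selected on the strong fall of Odz3 in the Bmp2 knock-out cells, so their genotype differences are given as a description without a test. The cells were the iBmp2 fx/fx line, with Bmp2 floxed/floxed alleles, and the iBmp2 ko/ko line, labelled Bmp2 KO, which are immortalized lines of mouse dental papilla cells (fx/fx and ko/ko in what follows). Total RNA was sequenced as 1 library per genotype at culture times of 6, 24, 48 and 72 h, which gave 4 libraries per genotype. Differences between the genotypes are over 6, 48 and 72 h (n = 3 per genotype), the times the study's methods list, so the spread between replicates holds the spread between culture times of 1 line per genotype. In RNA of whole cultures, fewer cells that express a gene and less RNA per cell cannot be told apart.

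Teneurins are large single-pass membrane proteins that bind across cell contacts to latrophilins, adhesion G protein-coupled receptors with a long extracellular part. Flrt proteins bind latrophilins at another site, and the 3 families can join in 1 complex. These pairs are best known from synapse formation and the matching of neurons, and Flrt proteins also from the guidance of migrating cells through Unc5 receptors.

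Between 25890110 and 32415665 reads were counted on genes per library (median 29985177), and the level that 3 counts give was 0.0925 to 0.116 CPM (counts scaled to 1000000 reads counted on genes), a floor that covers counting error only. Bmp2 had a total of 1 read, in the fx/fx cells at 24 h, so its transcript did not check the genotype labels. The library labelled ko/ko at 24 h went against its label. Over 12434 genes with a mean of at least 20 counts, its root mean square difference of log2 CPM from the fx/fx library of 6 h was 0.141, the smallest of all pairs (next 0.318), and its differences from the other ko/ko libraries were 0.648 to 0.857. The chi-square of a gene between these libraries had a median of 1.09 (next lowest pair 5.72) and a mean of 5.16, both above what sampling noise alone gives, so they were not the same counts. This library is therefore shown apart as the library labelled ko/ko at 24 h. The mesenchymal markers were present in both lines, with all 8 of Col1a1, Col1a2, Col3a1, Vim, Pdgfra, Pdgfrb, Prrx1 and Twist1 above 1 CPM in every library. Of 9 dental mesenchyme markers 7 were above 1 CPM in every library, while Lhx8 and Barx1, like the odontoblast markers Dspp and Ibsp, were at or under 3 counts throughout.

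**Figure D1:**
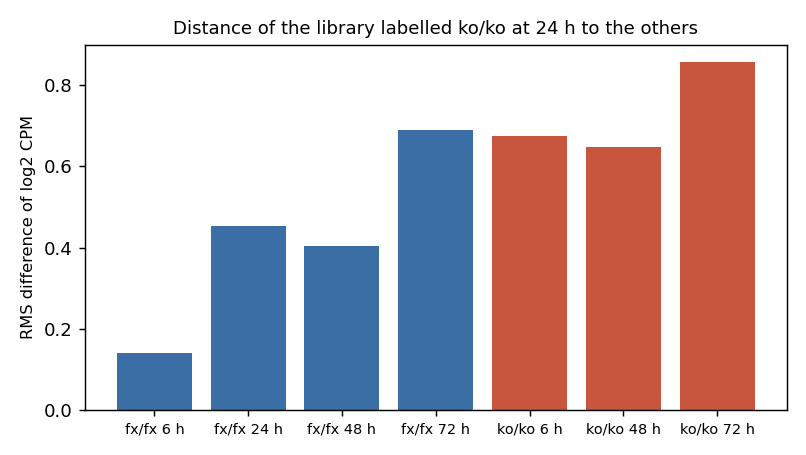
Root mean square difference of log2 CPM between the library labelled ko/ko at 24 h and each other library, over 12434 genes (bars from 0; blue, fx/fx; red, ko/ko). The bar of the fx/fx library of 6 h is the lowest, at 0.141, and the 3 ko/ko bars lie between 0.648 and 0.857.

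Among the members, Odz3 and Lphn3 were about 18-fold lower in the ko/ko cells, Lphn1 and Flrt2 were lower by less than 2-fold, Lphn2 was about 3.5-fold higher, and Odz4 overlapped between the lines. Odz1, Odz2 and Flrt3 did not pass edgeR's filter on low counts. Of the 6 members that passed, 4 were lower in all 3 ko/ko libraries than in any fx/fx library of the same times and 1 was higher, where 10.5% and 8.76% of the 13121 genes tested did so. Because the members were selected on this contrast, nothing is read from that count. Their median log2 fold change was -0.77, against 0.03 over all genes tested.

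The 250 bases before the start of Odz3, Lphn1 and Flrt2 are printed because these members were lower in the ko/ko cells and their windows share no base with an annotated exon of mm9. They are RefSeq promoter entries of GRCm38.p6 (under the symbols Tenm3, Adgrl1 and Flrt2), of which all 9 members have at least 1, and each was placed in mm9 by its only exact match. They are written 5′ to 3′ on the strand of the gene, and the last base precedes the start. Capitals mark GGCGCC, a GC-rich element known from Bmp-responsive genes, CAGAC (or GTCTG on the other strand), a Smad binding element, and TGACGTCA, the cAMP response element, all searched on both strands and chosen after the sequences were seen.
Odz3, chr8:49760045-49760294, minus strand: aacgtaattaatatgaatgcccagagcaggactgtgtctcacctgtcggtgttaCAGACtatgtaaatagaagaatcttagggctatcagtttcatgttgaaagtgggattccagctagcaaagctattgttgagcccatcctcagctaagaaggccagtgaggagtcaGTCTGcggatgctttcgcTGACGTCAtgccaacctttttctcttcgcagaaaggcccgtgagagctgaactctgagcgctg
Lphn1, chr8:86423747-86423996, plus strand: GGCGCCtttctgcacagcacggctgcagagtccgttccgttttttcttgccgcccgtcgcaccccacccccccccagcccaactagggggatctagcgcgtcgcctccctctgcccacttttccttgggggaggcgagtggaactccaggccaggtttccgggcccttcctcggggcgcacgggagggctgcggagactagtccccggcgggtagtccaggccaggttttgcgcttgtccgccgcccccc
Flrt2, chr12:96930186-96930435, plus strand: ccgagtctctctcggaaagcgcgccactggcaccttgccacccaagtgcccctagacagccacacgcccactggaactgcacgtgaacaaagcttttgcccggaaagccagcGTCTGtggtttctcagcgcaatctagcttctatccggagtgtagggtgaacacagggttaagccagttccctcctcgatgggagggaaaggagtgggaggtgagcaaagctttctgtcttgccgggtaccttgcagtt

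In the Odz3 window CAGAC or its reverse began 196 and 81 bases before the start, and TGACGTCA 63 bases before it. The Lphn1 window opened with GGCGCC, 250 bases before the start, and the Flrt2 window held GTCTG at 138 bases. Among 32851 RefSeq windows of the same length, 9.59% held GGCGCC, 42.2% CAGAC or GTCTG and 1.55% TGACGTCA, and the letters do not overlap each other in the printed windows. Of the 3 Lphn3 windows, which share bases with exons of mm9 and are not printed, the first held GGCGCC 132 bases before its start. The Lphn2 window, also within exons, held CAGAC or GTCTG at 82 bases. So did 2 other windows that share no base with an exon, that of Flrt3 at 97 bases and the second of 2 Odz4 windows at 140 and 93 bases. A match is a description of the letters and not of a bound site.

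Odz3 (teneurin-3, ENSMUSG00000031561.8, mm9 chromosome 8, 49313036 to 49760044, minus strand) was the teneurin with the largest difference between the lines. Teneurin-3 is known as a homophilic adhesion molecule that matches neurons of the visual system and hippocampus. In the fx/fx cells it had 45.5, 37.3, 44.9 and 42.8 CPM at 6, 24, 48 and 72 h. The ko/ko cells had 2.25, 2.35 and 2.90 CPM at 6, 48 and 72 h. The library labelled ko/ko at 24 h had 46.1 CPM, above every fx/fx library. Over 6, 48 and 72 h the levels were 44.4 ± 1.41 CPM in the fx/fx cells and 2.50 ± 0.349 CPM in the ko/ko cells (SD, n = 3), which gave a log2 fold change of -4.14 (standard error 0.22) in edgeR. Leaving out any 1 of these 6 libraries gave -4.31 to -4.04, and including both 24 h libraries gave -1.71. At 66 to 75 counts per ko/ko library, Odz3 was well above the floor, so it was reduced and still detected.

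Odz4 (teneurin-4, ENSMUSG00000048078.9, chromosome 7, 103319754 to 104059603, plus strand), known from the myelination by oligodendrocytes, overlapped between the lines. Its levels in the fx/fx cells were 11.4, 63.8, 22.6 and 11.8 CPM at 6, 24, 48 and 72 h. Those of the ko/ko cells were 7.73, 21.8 and 9.15 CPM at 6, 48 and 72 h, and the library labelled ko/ko at 24 h had 11.8 CPM. The fx/fx library of 24 h was thus the highest of the 8, and in both lines 48 h was above 6 and 72 h. At each of 6, 48 and 72 h the ko/ko level was the lower of the pair. The log2 fold change over these times was -0.24 (standard error 0.47), -0.32 with the culture time as a block (standard error 0.16), 0.15 without the fx/fx library of 48 h, -0.84 without the ko/ko library of 48 h and -1.10 with the fx/fx library of 24 h added. The antisense lncRNA Gm15415 shares 989 exon bases (4.70%) with Odz4 and was also highest at 24 h in the fx/fx cells, with 189 counts against 35 to 98 in the other 7 libraries. The strand setting of the counting is not given in the sources used here, so reads of the shared bases cannot be assigned.

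Odz1 (teneurin-1, chromosome X, 39881043 to 40782303) had 0 counts in all 8 libraries. Odz2 (teneurin-2, chromosome 11, 35820158 to 37049466), a known ligand of Lphn1, had 0 to 1 counts per library in the fx/fx cells and 1 to 3 in the ko/ko cells. Both were at or under the floor of 3 counts in every library, and no fold is given for them. Transcripts of Odz1 were therefore not detected at this depth, and the reads of Odz2 were too few to measure its level.

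Levels per exon length (RPKM, from the union of exons in GENCODE M1) gave the makeup of the teneurins. In the fx/fx cells the 4 teneurins summed to 4.51 to 6.47 RPKM, of which Odz3 was 88.5, 53.1, 79.3 and 87.5% at 6, 24, 48 and 72 h. The share at 24 h rests on the exon lengths used, 10855 bases for Odz3 and 21030 for Odz4. In CPM, Odz4 (63.8) was above Odz3 (37.3) in the fx/fx library of 24 h. In the ko/ko cells at 6, 48 and 72 h the sum was 0.580 to 1.26 RPKM and the share of Odz3 was 17.2 to 37.8%, so Odz4 was the main teneurin there, with 61.7 to 82.2%. The library labelled ko/ko at 24 h had 4.81 RPKM, with 88.3% from Odz3. The level of Odz4 itself was 0.73 ± 0.303 RPKM in the fx/fx and 0.61 ± 0.369 RPKM in the ko/ko cells (SD, n = 3).

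**Figure D2:**
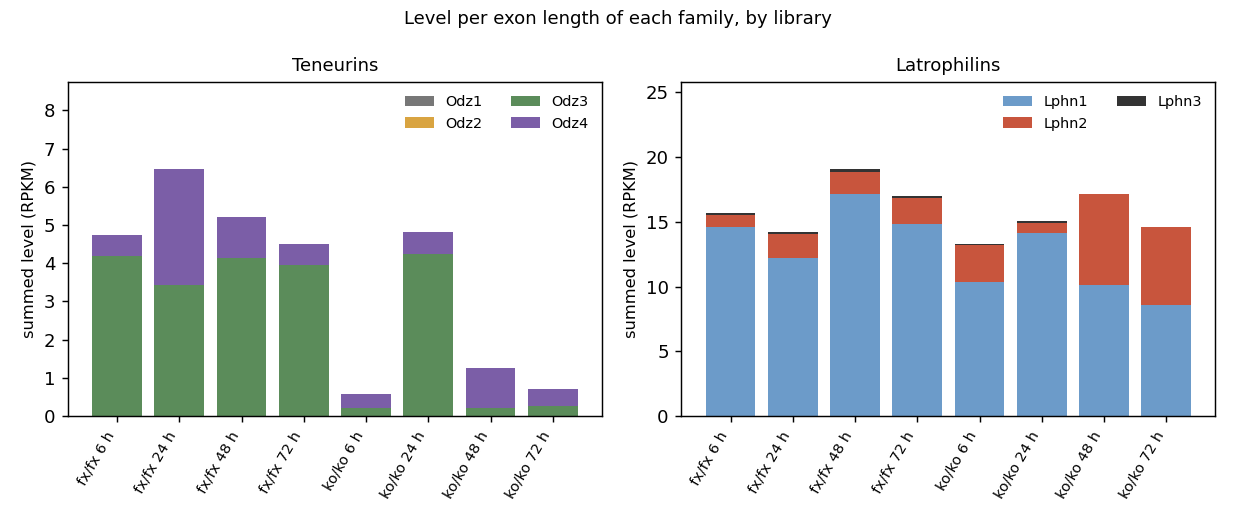
Summed RPKM of the 4 teneurins (left) and 3 latrophilins (right) in each library, with each bar divided by gene and axes from 0. Odz3 makes up most of the teneurin bars in all fx/fx libraries and in the library labelled ko/ko at 24 h. In the fx/fx library of 24 h its share is 53.1%. Lphn2 takes 21.9 to 41.2% of the latrophilin bars in the ko/ko libraries other than that labelled 24 h.

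Lphn1 (latrophilin-1, ENSMUSG00000013033.10, chromosome 8, 86424004 to 86465853, plus strand), the receptor of α-latrotoxin, was the most abundant member per exon length in both lines. Its levels were 125.7, 105.0, 147.4 and 127.5 CPM at 6, 24, 48 and 72 h in the fx/fx cells. They were 88.9, 87.2 and 73.8 CPM at 6, 48 and 72 h in the ko/ko cells and 121.4 CPM in the library labelled ko/ko at 24 h. Every ko/ko library other than that of 24 h lay below every fx/fx library. The means were 134 ± 12.0 and 83.3 ± 8.27 CPM (SD, n = 3), which gave a log2 fold change of -0.68 (standard error 0.16), and -0.46 over all 8 libraries. The annotated gene Gm10644 shares 1107 exon bases (12.9%) with Lphn1 on the other strand and was not analysed here.

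Lphn2 (latrophilin-2, ENSMUSG00000028184.7, chromosome 3, 148478550 to 148652280, minus strand), the most widely expressed latrophilin outside the nervous system, was the member higher in the ko/ko cells among those that passed the filter. It had 7.49, 15.7, 14.2 and 16.8 CPM at 6, 24, 48 and 72 h in the fx/fx cells. The ko/ko levels were 24.4, 59.2 and 50.8 CPM at 6, 48 and 72 h, and the library labelled ko/ko at 24 h had 6.67 CPM, below all other libraries. The lowest level of the line was at 6 h in both genotypes, and the lowest ko/ko level of these times was above the highest fx/fx level. The means were 12.8 ± 4.79 and 44.8 ± 18.2 CPM (SD, n = 3), which gave a log2 fold change of 1.8 (standard error 0.44). It lay between 1.50 and 2.13 when 1 library was left out and was 1.39 over all 8 libraries.

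Lphn3 (latrophilin-3, ENSMUSG00000037605.9, chromosome 5, 81449163 to 82254158, plus strand), a synaptic receptor of teneurins and of Flrt3, was low in the fx/fx cells and near the floor in the ko/ko cells. Its counts were 74, 52, 105 and 81 at 6, 24, 48 and 72 h in the fx/fx cells, or 1.84 to 3.24 CPM. In the ko/ko cells it had 3, 5 and 5 counts at 6, 48 and 72 h, or 0.102 to 0.193 CPM, and the library labelled ko/ko at 24 h had 52 counts, or 2.00 CPM. The summed counts of 6, 48 and 72 h, 260 and 13, gave a level 18.1-fold higher in the fx/fx cells, with an exact 95% interval of 10.4 to 34.5 that covers counting error only. The log2 fold change in edgeR was -4.13 with a standard error of 0.41, -2.30 in limma on log2 CPM (offset 0.5), -1.45 in limma on log2 RPKM and -2.06 over all 8 libraries in edgeR. The antisense lncRNA Gm16054, which shares 1130 exon bases (8.51%) with Lphn3, moved with it, with 17, 32 and 21 counts in the fx/fx cells and 0, 2 and 0 in the ko/ko cells at 6, 48 and 72 h. The 24 h libraries had 12 counts of Gm16054 in the fx/fx cells and 16 in the library labelled ko/ko, and how many of these reads are of Lphn3 was not tested.

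The latrophilins as a family differed between the lines more in makeup than in sum. Their summed level was 14.2 to 19.1 RPKM in the 4 fx/fx libraries and 13.3 to 17.2 RPKM in the ko/ko libraries of 6, 48 and 72 h, so the ranges overlapped, with the ko/ko sum the lower at each of these times. The share of Lphn1 was 85.9 to 93.2% in the fx/fx cells and 58.7 to 78.1% in the ko/ko cells. The share of Lphn2 was 5.66 to 13.1% and 21.9 to 41.2%, with 21.9, 40.9 and 41.2% at 6, 48 and 72 h. Lphn3 made up 0.972 to 1.28% in the fx/fx cells and 0.0580 to 0.0994% in the ko/ko cells. In the library labelled ko/ko at 24 h these shares were 93.8, 5.25 and 1.00%.

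Flrt2 (ENSMUSG00000047414.5, chromosome 12, 96930436 to 97023425, plus strand), a latrophilin and Unc5 ligand known from heart and craniofacial development, was the Flrt protein gene with nearly all reads of the pair. It had 86.0, 92.6, 77.8 and 100.6 CPM at 6, 24, 48 and 72 h in the fx/fx cells. The ko/ko levels were 38.6, 42.4 and 64.2 CPM at 6, 48 and 72 h, and the library labelled ko/ko at 24 h had 92.8 CPM. Outside that library the lines did not overlap. The means were 88.1 ± 11.6 and 48.4 ± 13.8 CPM (SD, n = 3), which gave a log2 fold change of -0.86 (standard error 0.25), with a range of -1.16 to -0.68 when 1 library was left out.

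Flrt3 (ENSMUSG00000051379.6, chromosome 2, 140476650 to 140497205, minus strand, within an intron of Macrod2) was at the floor in the fx/fx cells, with 1 count in the 72 h library and 0 in the others. Counts in the ko/ko cells were 2, 11 and 7 at 6, 48 and 72 h, and 1 in the library labelled ko/ko at 24 h. The summed counts of 6, 48 and 72 h, 1 and 20, gave a ratio of 22.1, with an exact 95% interval of 3.53 to 915 for counting error. The level in the ko/ko cells, 0.233 ± 0.149 CPM (SD, n = 3), was low all the same, and Flrt2 made up at least 98.7% of the summed RPKM of Flrt2 and Flrt3 in every library.

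**Figure D3:**
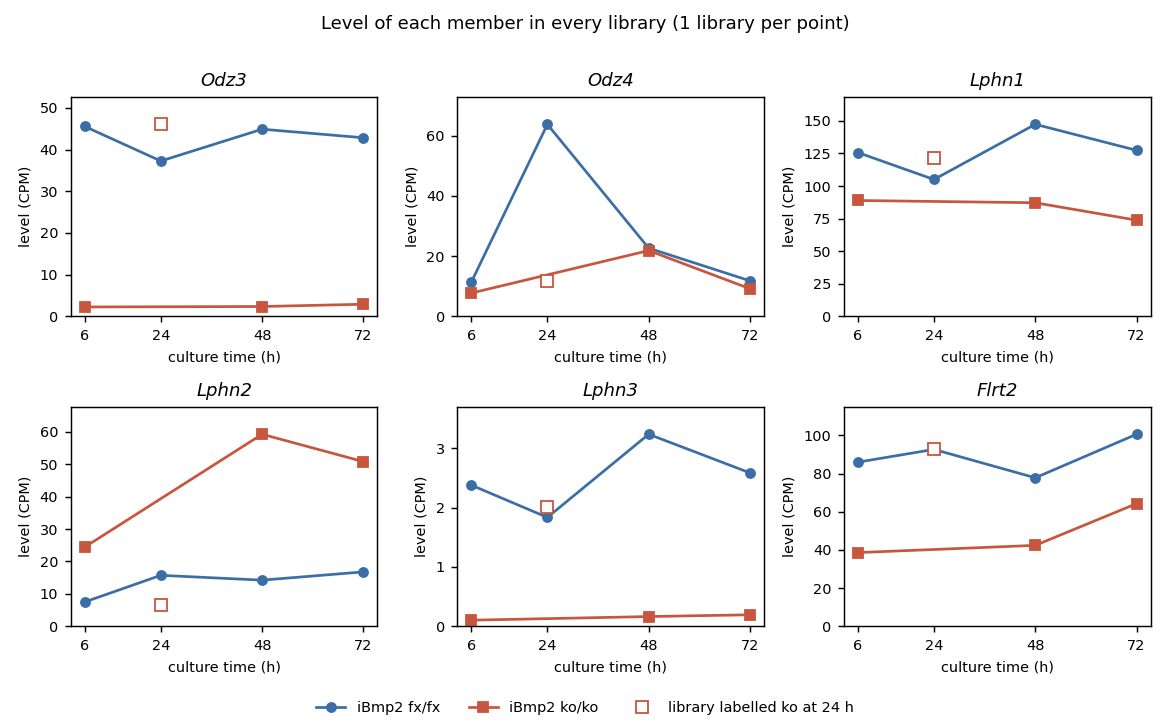
Level in CPM of the 6 members that passed the filter, by culture time in hours, with 1 library per point, lines joining the libraries of a genotype and axes from 0. For Odz3, Lphn1, Lphn3 and Flrt2 the filled ko/ko squares lie below the fx/fx circles, for Lphn2 above them, and the open square of the library labelled ko/ko at 24 h lies with the circles in these panels or, for Lphn2, just below them.

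Ordered by RPKM, the fx/fx cells had Lphn1 (15.6 ± 1.40), Flrt2 (11.4 ± 1.50), Odz3 (4.09 ± 0.130), Lphn2 (1.52 ± 0.569), Odz4 (0.73 ± 0.303) and Lphn3 (0.206 ± 0.0338; SD, n = 3 each), followed by Flrt3, Odz2 and Odz1 at or near 0. Of these first 6, Lphn2 and Odz4 had overlapping ranges and the other neighbours did not. In the ko/ko cells the order was Lphn1 (9.70 ± 0.963), Flrt2 (6.27 ± 1.79), Lphn2 (5.32 ± 2.15), Odz4 (0.61 ± 0.369) and Odz3 (0.230 ± 0.0321), with Flrt3 and Lphn3 below 0.1. There Flrt2 overlapped Lphn2 and Flrt3 overlapped Lphn3. Odz3 thus went from the third to the fifth place and Lphn2 from the fourth to the third, and Lphn1 was first in both lines.

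Culture time was not used in the choice of the members, so their change with it was tested in edgeR over 7 libraries, without that labelled ko/ko at 24 h, as a slope on the log2 of time with genotype as a term. None of the 6 members passed an adjusted p of 0.05, and 0 of 13208 genes (0%) did, while 3441 had an unadjusted p under 0.05. DESeq2 called 1649 genes, with 7.37% of the genes tested rising, and limma called 0. Lphn2 had the largest slope among the members, 0.35 per doubling of time with a standard error of 0.07, or 2.39-fold from 6 to 72 h (adjusted p = 0.108 in edgeR and 0.00013 in DESeq2). Its adjusted p over 14 alternatives ranged from 0.00013 to 0.634, with 0.0449 in edgeR without the ko/ko library of 48 h. The level of Lphn2 at 72 h over that at 6 h was 2.24 in the fx/fx cells and 2.08 in the ko/ko cells. For the other members the slopes were 0.20 for Odz4 (standard error 0.28), 0.15 for Lphn3 (0.11), 0.12 for Flrt2 (0.06), 0.05 for Odz3 (0.05) and 0.02 for Lphn1 (0.05), with adjusted p between 0.263 and 0.826 in edgeR. The median slope of the 6 was 0.13 against 0.01 over all genes tested, and those of Odz3, Odz4 and Lphn1 changed sign under at least 1 alternative.

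**Figure D4:**
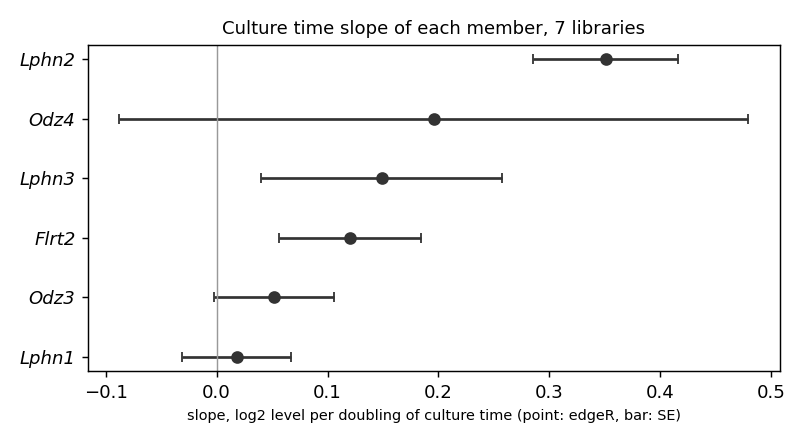
Slope of each member on culture time, as log2 level per doubling of time (point, edgeR estimate over 7 libraries; bar, standard error; grey line, 0). Lphn2 has the largest slope, 0.35, and Odz4 the widest bar, with a standard error of 0.28.

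Whether the slope differed between the lines was tested as an interaction of genotype and culture time in the same 7 libraries. Again 0 of 13208 genes (0%) passed an adjusted p of 0.05 in edgeR, 133 had an unadjusted p under 0.05, DESeq2 called 1 gene and limma 0. The slope in the ko/ko cells minus that in the fx/fx cells was 0.03 for Lphn2 (standard error 0.14), 0.09 for Odz3 (0.11), -0.09 for Lphn1 (0.10), 0.13 for Flrt2 (0.13), 0.16 for Lphn3 (0.26) and 0.22 for Odz4 (0.62). The ko/ko slope of Lphn3 rests on 3, 5 and 5 counts at 6, 48 and 72 h, near the floor, so nothing is read from its difference. The standard errors of Odz4, Lphn3 and Flrt2 leave room for differences larger than any slope measured in these members. With so few libraries, such differences are not excluded for Odz3 and Lphn2 either. With 3 ko/ko libraries the test shows only that no difference was detected.

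The genes whose pattern over the 8 libraries was nearest to that of Odz3, by the root mean square difference of centred log2 CPM, were Tspan18 (0.262), Kcnn4 (0.285), Wnt11 (0.291), 1500016L03Rik (0.314) and Smad9 (0.329), among 13052 genes. Tspan18 encodes a tetraspanin, Kcnn4 a calcium-activated potassium channel, Wnt11 a Wnt ligand and Smad9 a receptor-regulated Smad of the Bmp pathway. Wnt11 had 8.93 to 19.2 CPM in the fx/fx cells, 0.752 to 1.20 CPM in the ko/ko cells and 18.6 CPM in the library labelled ko/ko at 24 h. Smad9 had 95.0 to 114 CPM, 7.62 to 13.8 CPM and 117 CPM in the same order. Tspan18, at 1.59 to 3.09 CPM and 0.0327 to 0.116 CPM, was near the floor in the ko/ko cells. Lphn3 was in the 8th place, with a difference of 0.361, and Flrt2 and Lphn1 in the places 566 and 1180. The points of this likeness share their libraries and the genotype difference that singled out Odz3.

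Other genes of the pathway were described by 6 lists of 92 genes in all, of which 90 are in the gene table and 46 passed the filter. In edgeR's test of genotype over 6, 48 and 72 h, 291 of 13121 genes (2.22%) passed an adjusted p of 0.05, 171 lower (1.30%) and 120 higher (0.915%) in the ko/ko cells. Of the 46 listed genes 8 passed (17.4%), 6 lower and 2 higher, with a median log2 fold change over the 46 of -0.19. With the culture time as a block, 13 were lower and 6 higher, where 11.4% and 11.3% of all genes were. Over all 8 libraries without the block 0 of the 46 passed and 11 had an unadjusted p under 0.05, as did 0 and 1336 of all genes.

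The partners of Flrt proteins were the list with most calls among few genes, with 3 of 4 tested genes lower, Flrt1, Unc5b and Unc5c, and a median log2 fold change of -1.76. Flrt1, the remaining Flrt gene (chromosome 19, 7166504 to 7180219, minus strand, within Macrod1), had 11.0, 13.6, 11.9 and 12.1 CPM at 6, 24, 48 and 72 h in the fx/fx cells. It had 2.96, 5.20 and 2.74 CPM at 6, 48 and 72 h in the ko/ko cells and 11.1 CPM in the library labelled ko/ko at 24 h. Its log2 fold change was -1.68 (standard error 0.32, adjusted p = 0.0471 in edgeR), and the call was lost without any 1 of the 6 libraries (adjusted p = 0.0673 to 0.2 in edgeR) and with at least 10 counts in every library (0.0679). Unc5c, a netrin and Flrt receptor, had 12.7 to 19.9 CPM in the 4 fx/fx libraries, 1.12 to 1.97 CPM in the ko/ko cells and 12.9 CPM in the library labelled ko/ko at 24 h. It fell by 3.32 on the log2 scale (standard error 0.34, adjusted p = 0.00889 in edgeR), and the call was lost without either library of 48 h. Unc5b, a receptor of the same family and of netrin, had 385 to 615 CPM in the fx/fx cells and 115 to 210 CPM in the ko/ko cells, a log2 fold change of -1.85 (standard error 0.28, adjusted p = 0.0232 in edgeR). Without any 1 library other than that of the ko/ko cells of 72 h, Unc5b did not pass. Fgfr1, a growth factor receptor that Flrt proteins bind, did not pass (log2 fold change -0.37, adjusted p = 0.659 in edgeR), and Unc5a, Unc5d and Robo1 had at most 1 count in any library.

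Among neurexins, neuroligins and contactin 6, which include other ligands of latrophilins, 3 of 7 genes were tested and Nrxn2 was lower, with a median log2 fold change of -0.34. Nrxn2 had 0.575 to 1.14 CPM in the fx/fx cells, 0.131 to 0.204 CPM in the ko/ko cells and 0.886 CPM in the library labelled ko/ko at 24 h. It fell by 2.47 on the log2 scale (standard error 0.46, adjusted p = 0.0451 in edgeR), on 4 to 6 counts per ko/ko library, and did not pass without any 1 of the 6 libraries or in limma on log2 CPM (-1.08, adjusted p = 0.072) and log2 RPKM (-0.57, adjusted p = 0.297). Of the 6 genes tied to the intracellular part or to the C-terminal peptide of teneurins 0 passed in edgeR, 0 in limma on log2 CPM and 0 in DESeq2. The most abundant of them were Dag1, dystroglycan, with 191 to 328 CPM in the fx/fx cells and a log2 fold change of -0.02, and Hint1, with 227 to 286 CPM and 0.08.

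Of 28 other adhesion G protein-coupled receptors 26 are in the table and 13 were tested, and Bai1 and Celsr1 were lower and Gpr126 higher, with a median log2 fold change of -0.81. Bai1, a phagocytic receptor, had 50, 132 and 100 counts in the fx/fx cells and 3, 1 and 1 in the ko/ko cells at 6, 48 and 72 h, and 42 in the library labelled ko/ko at 24 h. Its summed counts gave a ratio of 51.1, with an exact 95% interval of 21.6 to 159 for counting error (adjusted p = 0.0116 in edgeR), and the call was lost without either library of 48 h. Celsr1, a planar polarity cadherin, had 1.12 to 2.51 CPM in the fx/fx cells and 0.309 to 0.510 CPM in the ko/ko cells, and fell by 2.34 on the log2 scale (standard error 0.45, adjusted p = 0.0488 in edgeR). It passed without the fx/fx library of 72 h and not without any other 1 library, nor in limma on log2 CPM (-1.44, adjusted p = 0.0551) and log2 RPKM (-1.01, adjusted p = 0.127). Gpr126, a receptor known from Schwann cell myelination, had 2.19 to 2.90 CPM in the fx/fx cells, 14.8, 16.4 and 6.91 CPM at 6, 48 and 72 h in the ko/ko cells and 2.66 CPM in the library labelled ko/ko at 24 h. It rose by 2.31 on the log2 scale (standard error 0.37, adjusted p = 0.0265 in edgeR), and passed without the ko/ko library of 72 h but not without any other 1 library. With the block 5 of the 13 were lower and 3 higher, where 11.4% and 11.3% of all genes were.

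Of the 20 Slit, netrin and related guidance genes 10 were tested, and Unc5b and Unc5c, which this list shares with that of the Flrt partners, passed, with a median log2 fold change of -0.40. With the block Neo1, a netrin receptor named here after its value was seen, was lower too (log2 fold change -0.45, adjusted p = 0.0334 in edgeR). Of 29 other leucine-rich repeat membrane protein genes 12 were tested and Lrrn3 was higher, with a median log2 fold change of -0.08. Lrrn3 had 5, 4 and 1 counts in the fx/fx cells and 33, 36 and 28 in the ko/ko cells at 6, 48 and 72 h, with 0 and 1 in the 24 h libraries. The ratio of the summed counts was 10.7, with an exact 95% interval of 5.58 to 23.0 for counting error (adjusted p = 0.0243 in edgeR), and the call remained without the ko/ko library of 72 h alone. With the block, 3 of the 12 were lower and 2 higher, where 11.4% and 11.3% of all genes were.

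**Figure D5:**
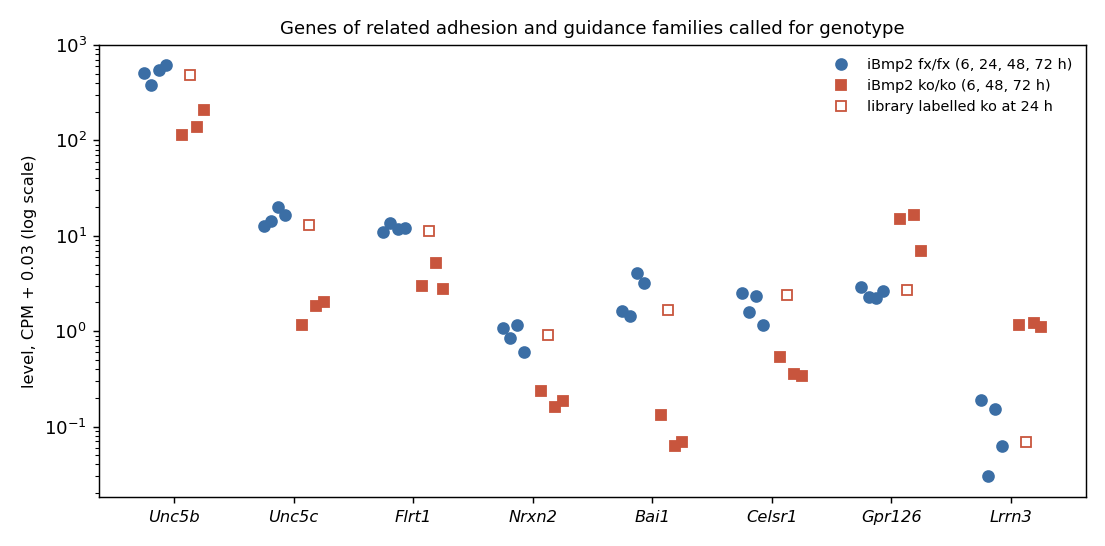
Level of the 8 listed genes that passed in the test of genotype, as CPM + 0.03 on a log axis, with 1 library per point. For all 8 genes the filled squares of the ko/ko libraries of 6, 48 and 72 h are apart from the circles of the 4 fx/fx libraries, and the open square of the library labelled ko/ko at 24 h lies among or next to the circles.

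Since the teneurins and latrophilins are best known from neurons, markers of other cell types were measured beside them. Of 8 neuronal markers 5 (Snap25, Syt1, Rbfox3, Elavl4 and Nefl) were at or under 3 counts in every library and Tubb3 alone passed the filter, so the summed level of 20.5 to 41.1 CPM in the fx/fx and 42.1 to 57.2 CPM in the ko/ko cells was nearly all from Tubb3. The 6 Schwann and glial markers summed to 1.88 to 4.03 CPM and 3.55 to 6.34 CPM, with Sox10 at or under 3 counts throughout. The sums were 1.88 to 3.41 and 1.51 to 3.66 CPM for 6 endothelial markers, 0.989 to 3.15 and 0.464 to 1.60 CPM for 8 epithelial markers and 4.25 to 14.3 and 2.82 to 3.60 CPM for 6 hematopoietic markers. The 9 dental mesenchyme markers summed to 162 to 205 CPM in the fx/fx cells and 77.7 to 130 CPM in the ko/ko cells. The 6 odontoblast markers summed to 131 to 235 and 88.3 to 112 CPM, mostly from Nes, at 118 to 171 and 87.6 to 110 CPM. Alpl was the only call of all marker lists. The 8 general mesenchyme markers summed to 8297 to 10358 CPM and 11450 to 17889 CPM. The part of these markers in the differences of the members was not tested.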

How the data were processed

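Total RNA of the fx/fx and ko/ko lines was sequenced as 8 libraries. The authors aligned the reads to mm9 with TopHat2 (2.0.8b, with CASAVA 1.8.2 and HTSeq also in the submitters' processing notes) and deposited raw HTSeq read counts per gene symbol and per lncRNA symbol. The labels give single-end reads and the study's methods paired reads, and the deposited design text gives another first culture time than 6 h. The annotation and strand setting of the counting are not given in the sources used here. The 5 HTSeq counters were left out of the library sizes, and 41.3 to 49.6% of alignments were not unique and not counted. Culture times served as replicates.

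Counts were tested in R 4.3.3 with edgeR 4.0.16 (TMM factors 0.935 to 1.04 over 8 libraries, filter of 10 counts and 15 in total, quasi-likelihood test, Benjamini-Hochberg adjustment over all genes tested, calls at 0.05). CPM are per reads counted on genes, and RPKM use exon lengths of GENCODE M1, which matched 95.7% of the symbols. The alternatives were other sets of libraries, a time block, DESeq2 1.42.0, limma 3.58.1, other filters, time in hours, the study's own limit and leaving out each library. The code was tested on simulated data. Named genes are the members, up to 6 called genes per list (where there is none, the 2 most abundant), the 5 genes most like Odz3, and Bmp2. The members and lists were chosen with earlier results of these data known. The deviations from the genotype means correlated across genes between libraries of equal culture time, with r of 0.713 at 6 h, 0.536 at 48 h and 0.840 at 72 h, against -0.695 to 0.168 between different times. The labelled culture time therefore pairs the libraries. The genotype test reported does not use this pairing, so its standard errors and calls are those of an unpaired test unless the block is named. Figures were drawn with matplotlib 3.10.9.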

Additional observations from a re-analysis of the deposited data

Results flagged for a closer look

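Within the 4 libraries of a genotype, a library was singled out where its gap to the nearest other, divided by the range, was above Dixon's 95% critical value. Of 32 groups of 4 (16 genes in both genotypes), 7 met this, and all 7 were the library labelled ko/ko at 24 h. Chance gives about 1 in 20 for unselected groups, a rate that does not apply here, since the genes include Odz3 and those called with this library left out. It had 46.1 CPM of Odz3 against 2.25 to 2.90 in the other ko/ko libraries, and 2.00 CPM of Lphn3 against 0.102 to 0.193. For Unc5c it had 12.9 CPM against 1.12 to 1.97, for Nrxn2 0.886 against 0.131 to 0.204, for Bai1 1.62 against 0.0327 to 0.102, and for Celsr1 2.39 against 0.309 to 0.510. Lrrn3 was the gene where it was low, with 0.0385 CPM against 1.08 to 1.18. Of the 6 members tested, 5 were nearer in this library to the fx/fx mean over 6, 48 and 72 h than to the ko/ko mean, as were 287 of the 291 genes called for genotype. The exception among the members was Odz4, whose levels overlapped between the lines. Its 11.8 CPM in this library was close to the 11.4 CPM of the fx/fx library of 6 h.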

How the results depend on the processing

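The number of genes called for genotype depended on the model and on the libraries. It was 291 in the test reported, 483 with the fx/fx library of 24 h added, 0 over all 8 libraries (1336 at an unadjusted p under 0.05 in edgeR), 2981 with the culture time as a replicate block over 6 libraries and 40 with that block over 8, 873 in DESeq2, 145 with at least 10 counts in every library and 964 at the study's limit (a log2 fold change beyond 1 in size and an unadjusted p under 0.05). Leaving out 1 library gave 9 (without the ko/ko library of 48 h) to 383 (without that of 72 h). Over 6 libraries the block changed no call among the 8 listed genes called (adjusted p = 0.000145 to 0.00606 in edgeR with the block). Over 8 libraries 7 of them did not pass (adjusted p = 0.0938 to 0.182 in edgeR with the block) and Lrrn3 was below the filter on low counts. For Odz3 the log2 fold change was -1.71 over all 8 libraries, -3.19 there with the block, -3.91 in limma on log2 CPM and -3.67 on log2 RPKM, and -4.31 to -4.04 with 1 library left out. The culture time trend, with 0 calls in edgeR, gave 1 call over all 8 libraries, 16 without a filter, 1649 in DESeq2 and 0 to 1069 with 1 library left out, the highest without the ko/ko library of 48 h. The interaction gave 1 call in DESeq2 and 0 with any 1 library left out. Slopes that changed sign were those of Odz3 over all 8 libraries (-0.051), Odz4 in hours (-0.11 per 24 h), and, with 1 library left out, Odz4 (-0.065 to 0.37) and Lphn1 (-0.0086 to 0.048). Interaction slopes that changed sign were those of Odz3 (-0.32) and Lphn3 (-0.12) over all 8 libraries and Lphn3 in limma (-0.032), and with 1 library left out Odz3 (-0.068 to 0.70), Odz4 (-2.01 to 1.78), Lphn2 (-0.52 to 0.30) and Lphn3 (-0.13 to 0.49). Dag1 was at 0.053 over all 8 libraries and 0.023 there with the block, Hint1 at -0.0071 with that block, and with 1 library left out they were -0.38 to 0.20 and -0.025 to 0.23. The cause of these changes was not tested. In limma on log2 CPM, Bai1 and Lrrn3 still passed, with log2 fold changes of -2.56 and 1.44 against -5.58 and 3.38 in edgeR. The depth limits Odz1 and Odz2, at or under 3 counts in every library, and Flrt3, with at most 11.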
